A study of Danio rerio with 24 samples.

Results

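The synaptic vesicle and SNARE genes described here are 47 genes of the machinery that docks, fuses, refills and retrieves transmitter vesicles at the nerve terminal, measured in whole brains of adult zebrafish. They were found in the count table by their zebrafish symbol, ignoring case, and where no symbol matched the final paralog letter was dropped. All 47 matched, 20 by the symbol itself and 27 with a paralog letter dropped, and they led to 50 of the 37241 gene identifiers in the table. For 25 of the 50 identifiers the match was 1 to 1. The other symbols are shared by a pair of paralogs, so that SNAP25, SYT7, SYT11, NAPB, DNM1, RAB3A, SLC17A6 and SLC17A7 each stand for 2 identifiers that could not be assigned to the a or the b copy. SYT2, SYT9 and NAPA also stand for 2 identifiers each, of which 1 may be a paralog outside the list, vamp1 led to vamp1a and vamp1b, and sv2ca and sv2cb share 1 identifier. Where a symbol is shared, the Ensembl identifier is given with it.

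Transmitter release rests on a small set of proteins. A vesicle SNARE of the synaptobrevin family (the vamp genes) pairs with syntaxin and SNAP25 on the plasma membrane and pulls the membranes together, and synaptotagmins, calcium-binding proteins of the vesicle, couple this step to calcium entry. The ATPase NSF and its SNAP adaptors (the nap genes) take the spent complexes apart, and dynamin, synaptojanin and endophilin retrieve the membrane. Neurexins are adhesion proteins of the presynaptic membrane, on the same side of the synapse as this machinery.

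The 15 libraries described here, 3 per genotype, came from 4 double-mutant lines, each lacking part or all of both paralogs of 1 neurexin, and from wild type (wt), all in the AB background. The lines were nrxn2a_full:nrxn2b_full, nrxn2a_tmr:nrxn2b_tmr, nrxn3a_full:nrxn3b_full and nrxn3a_tmr:nrxn3b_tmr, called nrxn2_full, nrxn2_tmr and so on from here. All are CRISPR/Cas9 alleles in homozygous fish. As the study describes them, full alleles remove the whole locus and tmr alleles the transmembrane region in the last exon. The homozygous fish came from a short run of inbred generations, and the sources used here give neither the number of brains in a library nor age in months or sex, so that p-values measure the spread between libraries.

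Total counts ran from 28512102 to 38016650 per library. The labels were checked on the neurexins. In each full line, the mean of both targeted genes was lower than in wt, at 351 normalised counts of nrxn2a and 2046 of nrxn2b in nrxn2_full against 4054 and 6764 in wt, and at 1437 of nrxn3a and 1.66 of nrxn3b in nrxn3_full against 12708 and 3895 in wt. Counts of nrxn2a, nrxn2b and nrxn3a remained in the full lines, at 8.65%, 30.3% and 11.3% of the wt mean, and their source was not tested. The tmr deletion is a small part of each gene, so that gene counts do not check it. Replicate 1 of nrxn2_full stood apart from its 2 mates, and the wt libraries also differed more among themselves than those of most lines, so each member call that leaving out 1 library of its comparison ended is given with that library. The neuron list, 25 identifiers, had 0 or 1 called per line, with medians from -0.11 to 0.05 on the log2 scale. In whole brain RNA, fewer cells of a type and less RNA per cell cannot be told apart.

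Levels are given as normalised counts, read counts divided by DESeq2 size factors. They are not corrected for gene length and are compared between genotypes only, not between genes. Fold changes are log2 values of the line over wt, adjusted p-values come from edgeR's quasi-likelihood test with Benjamini-Hochberg adjustment over all 23641 genes tested, and a gene was called, and is said to rise or fall, at an adjusted p under 0.05. The 4 comparisons share the same 3 wt libraries.

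Of the 50 identifiers, 47 had at least 10 counts in at least 3 libraries and were tested. The 3 others were stx1a, the syntaxin of the list, with 21 reads over the 15 libraries, SLC17A7 ENSDARG00000016480, with 10 reads, and syt1b, with 0 reads among 504858812, a count that allows up to 3. Among the 47 tested, 2 rose and 5 fell in nrxn2_full (4.57% of all genes tested rose and 5.08% fell), and in nrxn2_tmr 2 rose and 3 fell (3.71% and 4.77%). In nrxn3_tmr 3 rose and 1 fell (3.61% and 3.71%). In nrxn3_full edgeR called 0 in either direction (3.95% of all genes rose and 4.18% fell), 4 had an unadjusted p under 0.05, and DESeq2 called 1. For the unadjusted p and for DESeq2, the share of all genes is not given. The median of the 47 fold changes lay between -0.03 in nrxn2_full and 0.02 in nrxn3_full, and that of all genes tested between -0.01 and 0.00 in every line. In all, 16 calls fell on 12 identifiers, so that 25.5% of the 47 were called in at least 1 line, against 21% of all genes tested. The other 35 were called neither against wt nor between the full and tmr lines. Of these 35, 29 stayed within 0.5 of wt on the log2 scale in all 4 lines. The share of all uncalled genes that did so is not given.

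**Figure D1:**
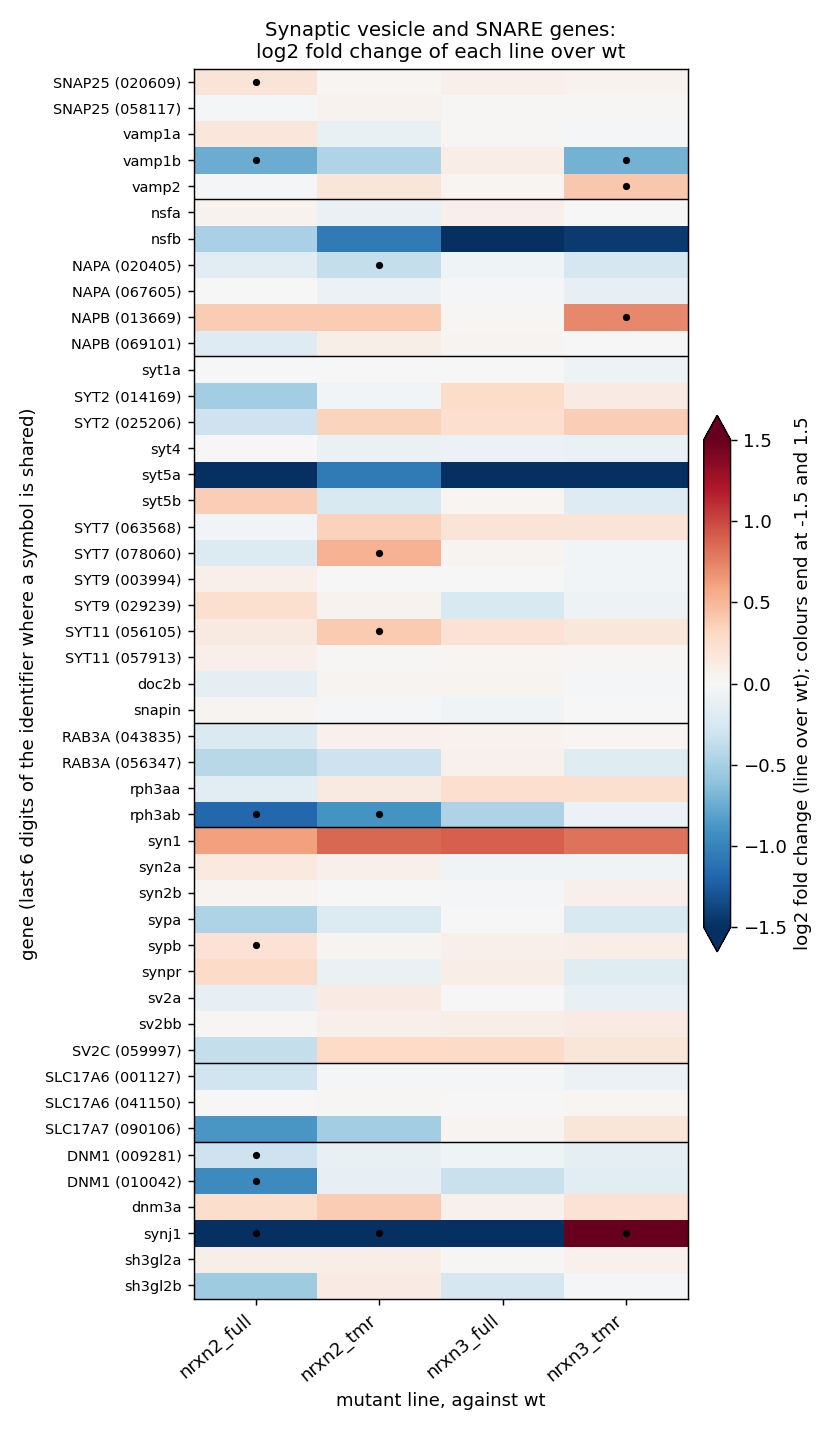
Log2 fold change over wt of the 47 identifiers tested (rows, grouped by role from the SNARE proteins at the top to endocytosis at the bottom) in the 4 lines (columns). Red is higher and blue lower than wt, colours end at -1.5 and 1.5, and dots mark calls. Most rows are pale in every line, and the darkest cells lie in nsfb, synj1 and syt5a.

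The ratio of the highest to the lowest of the 15 libraries had a median of 1.68 over the members, against 1.74 over all genes with a mean of at least 50 normalised counts. Those genes were not matched to the members for level, so whether members are steadier than genes of like level was not tested. The highest library was under 1.5 times the lowest for 20 of the 47 identifiers (42.6%, against 31.6% of those genes) and under 2 times for 31 (66.0%, against 56.9%). Among those with a low ratio were syt1a, the main fast calcium sensor of release, with 47749 to 54670 normalised counts, SYT11 ENSDARG00000057913, with 31077 to 35662, and snapin, a SNAP25 binding protein, with 2104 to 2626. At the other end, synj1 ranged from 5.62 to 8734, nsfb from 3.00 to 472, syt5a from 33.6 to 1049.7, and syn1 was at 0 in 1 library.

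Of the SNARE proteins, 3 of 5 identifiers were called in at least 1 line. This count and those of the other roles, over 14 identifiers or fewer, stand against the 21% of all genes tested that were called in at least 1 line. vamp2, the main synaptobrevin of brain synapses in mammals, had 10486, 8866 and 8905 normalised counts in nrxn3_tmr, against 7408, 6724 and 7169 in wt. All 3 libraries of the line lay above those of wt. Over all genes tested, the share above every wt library was 12.3% to 14.1% per line, and the share below was 12.1% to 14.2%. These shares apply wherever a lack of overlap with wt is stated. The rise was 0.41 ± 0.11 (log2, SE; adjusted p = 0.033), and was lost without nrxn3_tmr replicate 3 (adjusted p = 0.145) or without wt replicate 1, 3 or 5 (0.056, 0.113 and 0.065). Of 9 neighbours of vamp2 within 10 genes that could be tested, 1 was called in this line. That gene, ap4m1, which encodes an adaptor subunit and lies 2 genes away, had 1240, 1398 and 1429 in nrxn3_tmr, against 520, 521 and 470 in wt. It was also above every wt library in nrxn2_full (889, 1274.5 and 938) and nrxn2_tmr (944, 899 and 798), where vamp2 was not called. In nrxn3_full it had 416, 426 and 455. The part of the neighbourhood in vamp2 was not tested.

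vamp1b, a synaptobrevin paralog, moved the other way in nrxn3_tmr and also fell in nrxn2_full. It had 1115, 1349.5 and 716 normalised counts in nrxn2_full and 1092, 1106 and 1066 in nrxn3_tmr, against 2091, 1350.2 and 1905 in wt. Every library of both lines was below the lowest of wt, by under 1 count in nrxn2_full replicate 2. The nrxn2_tmr libraries, with 1335, 1310.5 and 1256, were also all below the lowest of wt. That line was not called with all libraries, but was called lower without wt replicate 3. The fall was -0.75 ± 0.18 in nrxn2_full (adjusted p = 0.013) and -0.71 ± 0.18 in nrxn3_tmr (adjusted p = 0.020). In nrxn3_full it had 1891, 1988 and 1854, within the range of wt, and nrxn3_full was 0.81 ± 0.18 above nrxn3_tmr (adjusted p = 0.012), a difference that held without any 1 library of these lines. Against wt, the calls were lost without nrxn2_full replicate 3 (0.059) or any 1 nrxn3_tmr replicate (0.061, 0.055 and 0.062). They were also lost without wt replicate 1 (0.060 in nrxn2_full and 0.090 in nrxn3_tmr) and, in nrxn3_tmr, without wt replicate 5 (0.057). tapbpl, the gene next to vamp1b, had 91.9, 146 and 55.8 in nrxn2_full and 278, 253 and 157 in nrxn2_tmr, against 183, 213 and 134 in wt. It had 164, 116 and 186 in nrxn3_full and 68.4, 77.6 and 95.9 in nrxn3_tmr, and was called in nrxn3_tmr. Of 17 neighbours of vamp1b that could be tested, 2 were higher and 3 lower in nrxn2_full and 1 higher and 3 lower in nrxn3_tmr, and their part in vamp1b was not tested.

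SNAP25 ENSDARG00000020609, one of the copies of the plasma membrane SNARE, rose in nrxn2_full. It had 146205, 161756 and 165955 normalised counts there, against 141476, 138188 and 136178 in wt, without overlap. The rise was small, 0.19 ± 0.05 (adjusted p = 0.016), and was lost without nrxn2_full replicate 2 or 3 (adjusted p = 0.063 and 0.087) or wt replicate 5 (0.057), and also with size factors from neuron markers (0.060). The other SNAP25 identifier and vamp1a were called in none, with line means of 27990 to 29737 against 28571 ± 3020 (SD, n = 3) in wt for SNAP25 ENSDARG00000058117, and 21879 to 26598 against 23625 ± 2763 in wt for vamp1a.

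In the disassembly step, nsfb, 1 of a pair of genes for NSF, came in steps. It had 472, 224 and 237 normalised counts in nrxn2_full, 213, 206 and 204 in nrxn2_tmr, 4.88, 194 and 208 in nrxn3_full and 219, 259 and 3.00 in nrxn3_tmr, against 447, 433 and 423 in wt. So 1 library of each nrxn3 line was near the floor, 1 of nrxn2_full was above wt, and the other 9 mutant libraries lay between 194 and 259, below every wt library. The fitted differences of -1.68 in nrxn3_full to -0.48 in nrxn2_full were not called (lowest adjusted p = 0.33).

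The genes next to nsfb were read in the same libraries. wnt3, a secreted signalling protein and the immediate neighbour on one side in the RefSeq order of GRCz12tu, had 0, 29.0 and 42.2 normalised counts in nrxn3_full and 45.6, 50.3 and 0 in nrxn3_tmr, against 51.8, 30.5 and 54.5 in wt. ormdl3, a regulator of sphingolipid synthesis and the next gene on that side, had 1.95, 33.1 and 23.8 in nrxn3_full and 73.9, 61.9 and 0.999 in nrxn3_tmr, against 53.9, 46.97 and 50.8 in wt. arhgef15b, the neighbour on the other side, had 69.3, 151 and 112.6 in nrxn3_full and 181, 222 and 33.0 in nrxn3_tmr, against 145, 178 and 135 in wt. Among the nrxn3 libraries these 3 genes were lowest in the 2 with the lowest nsfb, nrxn3_full replicate 2 and nrxn3_tmr replicate 5, and none was called. hdlbpb, the next gene on that other side, was not near the floor in either, with 89.8, 95.1 and 94.2 in nrxn3_full and 112, 81.8 and 77.9 in nrxn3_tmr, against 98.6, 114 and 79.9 in wt. In nrxn2_full replicate 1, where nsfb was above wt, wnt3, ormdl3 and arhgef15b had 97.5, 145 and 287. Each was the highest of the 15 libraries. hdlbpb had 77.1 in that library. Of 14 neighbours that could be tested, 2 were called higher and 1 lower in each of nrxn2_full, nrxn2_tmr and nrxn3_full, and 3 higher and 1 lower in nrxn3_tmr. The part of the neighbourhood in the nsfb levels was not tested.

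**Figure D2:**
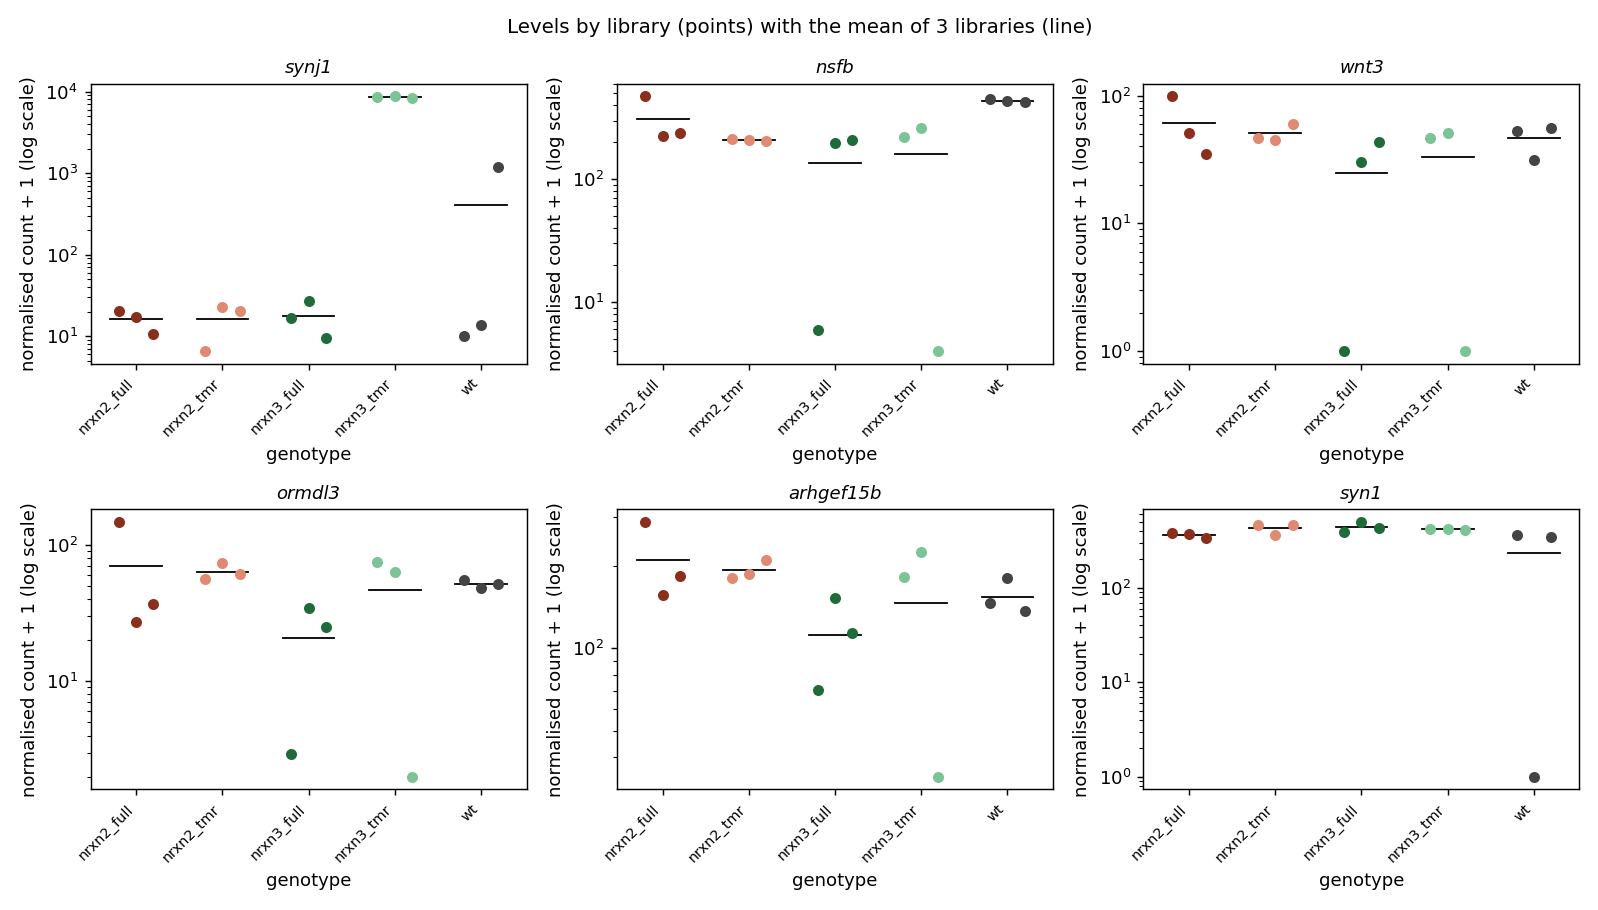
Normalised counts plus 1 (log scale) by library for synj1, nsfb, the nsfb neighbours wnt3, ormdl3 and arhgef15b, and syn1, in the 4 lines and wt. Points are libraries and lines are means of 3. nsfb, wnt3 and ormdl3 are near the floor in the same 2 libraries, 1 of each nrxn3 line, and syn1 is at 0 in wt replicate 3.

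NAPB ENSDARG00000013669 encodes a brain SNAP adaptor that recruits NSF to SNARE complexes. It had 11504, 15818 and 11101 normalised counts in nrxn3_tmr, against 8247, 6722 and 8397 in wt, without overlap. The rise was 0.72 ± 0.19 (adjusted p = 0.026). nrxn3_full, with 7652, 7910 and 8144, lay within the range of wt and was -0.70 ± 0.19 relative to nrxn3_tmr (adjusted p = 0.040). The nrxn2_full libraries, with 13597, 8898 and 7896, and those of nrxn2_tmr, with 12110, 10681 and 7758, spanned both ranges. The call against wt was lost without nrxn3_tmr replicate 4 (adjusted p = 0.129) or wt replicate 1 or 3 (0.052 and 0.107), and the difference between nrxn3_full and nrxn3_tmr without any 1 library but nrxn3_tmr replicate 5 (0.054 to 0.199), and also with size factors from neuron markers (0.076). The symbols napba and napbb lie on chromosomes 17 and 20, as do nrxn3a and nrxn3b, and the identifier could not be assigned to either.

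NAPA ENSDARG00000020405, an adaptor of the same family found in most cells, fell in nrxn2_tmr. It had 599, 601 and 563 normalised counts there, against 840, 748 and 671 in wt, and all 3 were under the lowest wt library. The fall of -0.36 ± 0.09 (adjusted p = 0.015) was lost without nrxn2_tmr replicate 3 (adjusted p = 0.066) or wt replicate 1 (0.080), and with size factors from neuron markers (0.10). nsfa, the other NSF gene, averaged 24380 to 27673 in the lines and 26208 ± 1306 in wt and was not called, nor were the other NAPA and NAPB identifiers.

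Among the calcium sensors and SNARE binding proteins, 2 of 14 identifiers were called against wt. SYT11 ENSDARG00000056105 belongs to a synaptotagmin that does not bind calcium in mammals. It had 3238, 3367 and 3906 normalised counts in nrxn2_tmr, against 3004, 2482 and 2544 in wt. All 3 were above the highest wt library. The rise was 0.39 ± 0.09 (adjusted p = 0.014), and was lost without nrxn2_tmr replicate 3 (adjusted p = 0.081) or wt replicate 3 or 5 (0.062 and 0.052). Its paralog SYT11 ENSDARG00000057913 averaged 32458 to 33860 in the lines and 32156 ± 812 in wt.

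SYT7 ENSDARG00000078060, a sensor with high calcium affinity, had 3443, 3182 and 3017 normalised counts in nrxn2_tmr, against 2402, 2067 and 2266 in wt. The rise was 0.52 ± 0.13 (adjusted p = 0.015), and was lost without nrxn2_tmr replicate 1 (0.065) or wt replicate 3 (0.064). In nrxn2_full it had 2298, 1792 and 1767, and nrxn2_full was -0.72 ± 0.13 relative to nrxn2_tmr (adjusted p = 0.0016), which held without any 1 library. The symbols syt7a and syt7b lie on chromosomes 25 and 7, and nrxn2b also lies on 7. This identifier could not be assigned to either symbol. SYT9 ENSDARG00000029239 was not called, with means of 1566 in nrxn3_full at the low end and 2157 in nrxn2_full at the high end, against 1831 ± 172 in wt.

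syt5a had 302, 33.6 and 39.5 normalised counts in nrxn2_full, 53.4, 579 and 384 in nrxn2_tmr, 38.1, 501 and 55.2 in nrxn3_full, and 39.1, 379 and 33.96 in nrxn3_tmr, against 465, 1049.7 and 615 in wt. Every line held both low and high libraries, and no line was called. The fold changes ran from -2.50 in nrxn2_full (adjusted p = 0.17) to -1.07 in nrxn2_tmr. Of the 21 identifiers of the retina list, 0 or 1 were called lower in each line. The list holds photoreceptor genes. Its summed level moved with syt5a, and its part in syt5a was not tested. The sum lay between 580 and 1495 in the 7 libraries with under 60 counts of syt5a, and between 12269 and 75959 in the other 8. By group it ran from 580 to 25081 in nrxn2_full, 923 to 17930 in nrxn2_tmr, 781 to 17573 in nrxn3_full and 689 to 32066 in nrxn3_tmr, against 22185 to 75959 in wt. In every genotype 0 of the 21 were at 0 in all libraries. The pineal list, 4 identifiers, summed to 62.5 to 191 in the 7 libraries with under 60 counts of syt5a. In the other 8 its sum was 192 in nrxn2_full replicate 1 and 1091 to 1943 in the rest. The part of the pineal in syt5a was not tested either. The eyes were taken out before the brain at dissection.

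**Figure D3:**
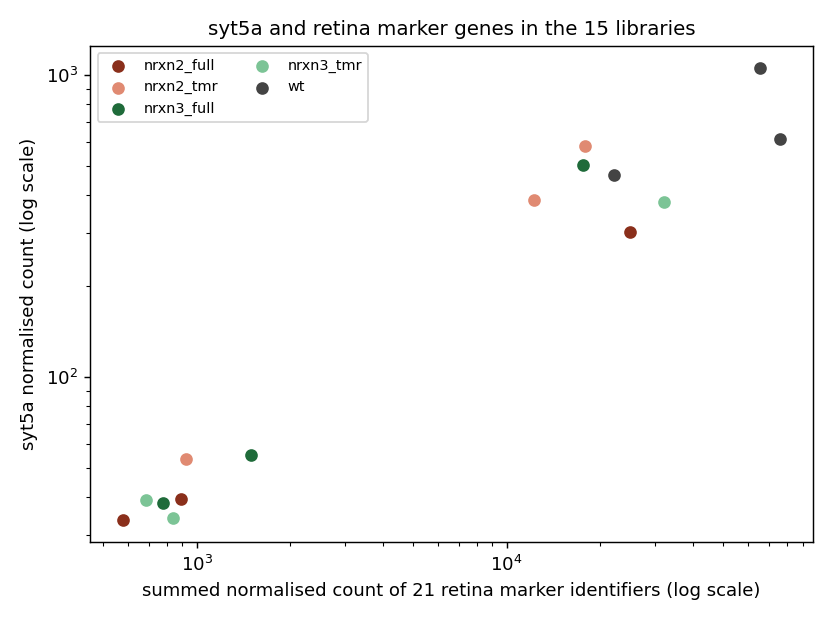
syt5a normalised count (y axis, log scale) against the summed normalised count of the 21 retina identifiers (x axis, log scale) in each of the 15 libraries, coloured by genotype. The 7 libraries with the lowest retina sums, 580 to 1495, are those with syt5a under 60 counts.

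The Rab3 genes and their rabphilin effectors had 1 of 4 identifiers called, rph3ab, a gene for rabphilin, which binds Rab3 on the vesicle. It had 1103, 846 and 668 normalised counts in nrxn2_full and 1086, 1042 and 1067 in nrxn2_tmr, against 1407, 1903 and 2619 in wt. All 6 libraries were below those of wt. The fall was -1.18 ± 0.23 in nrxn2_full (adjusted p = 0.0032), which held without any 1 library, and -0.89 ± 0.23 in nrxn2_tmr (adjusted p = 0.019), which was lost without any 1 replicate of nrxn2_tmr (0.057, 0.062 and 0.061) or wt replicate 5 (0.098). nrxn3_full, with 1438, 1387 and 1470, was narrow, while nrxn3_tmr had 2284, 2184 and 1092, and neither was called. rph3ab lies on chromosome 7, as nrxn2b does, with 1360 protein-coding genes between them. Of the 8 neighbours within 10 genes that could be tested, 1, ywhae2, was called higher and 0 lower in each nrxn2 line. In nrxn3_full 2 were called lower, and in nrxn3_tmr 1 was called higher and 0 lower. hectd4, 2 genes away, had 2912, 1694 and 1321 in nrxn2_full, against 2797, 2453 and 2884 in wt. In nrxn2_tmr it had 2763, 2163 and 2765, and neither nrxn2 line was called. The part of the neighbours in rph3ab was not tested. RAB3A and rph3aa were not called.

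**Figure D4:**
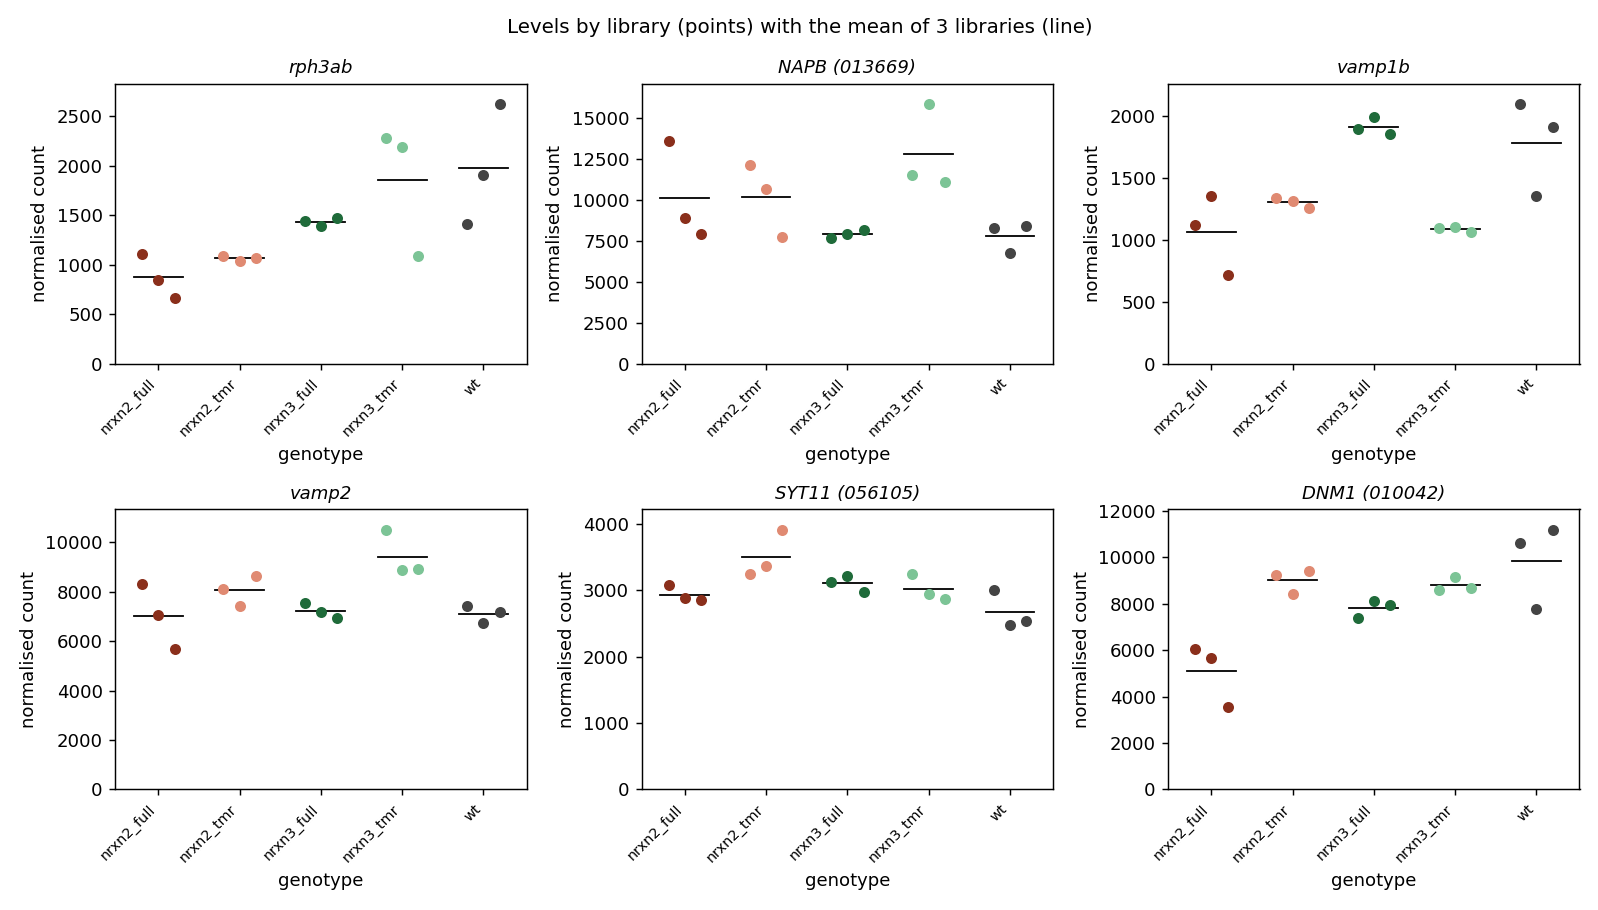
Normalised counts by library (points, with the mean of 3 as a line, axes from 0) of rph3ab, NAPB ENSDARG00000013669, vamp1b, vamp2, SYT11 ENSDARG00000056105 and DNM1 ENSDARG00000010042, in the 4 lines and wt. rph3ab lies below every wt library in all 6 nrxn2 libraries, and vamp1b is 1854 to 1988 in nrxn3_full and 1066 to 1106 in nrxn3_tmr.

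Of 9 identifiers of vesicle membrane and matrix proteins, 1 was called, for synaptophysin, a major vesicle membrane protein. sypb, 1 of its genes, had 25052, 27188 and 26177 in nrxn2_full, against 22147, 23001 and 22419 in wt. In nrxn3_tmr it had 24083, 24402 and 23736, also above every wt library, and was not called. The libraries of nrxn2_tmr and nrxn3_full overlapped those of wt. Of 19 neighbours that could be tested, 3 were higher and 3 lower in nrxn2_full. nfu1, next to sypb, had 1367 to 1674 in the 12 mutant libraries, against 1019 to 1247 in wt. The part of the neighbourhood in sypb was not tested. The rise of sypb in nrxn2_full was 0.21 ± 0.07 (adjusted p = 0.044). It was lost without nrxn2_full replicate 2 or 3 (0.148 and 0.11) or any 1 wt replicate (0.116, 0.064 and 0.101 for replicates 1, 3 and 5). It was also lost with size factors from neuron markers (0.104). The other, sypa, had 9560 in nrxn2_full replicate 1 and 15979 to 20885 in the other 11 mutant libraries, against 23632, 10211 and 25313 in wt, and was not called.

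The synapsins, which tether vesicles to one another, gave no call. syn2a had means from 13805 in nrxn3_full to 15879 in nrxn2_full, against 14350 ± 810 in wt. syn1 had 335 to 496.3 normalised counts in the 12 mutant libraries, against 361 and 345 in wt replicates 1 and 5 and 0 in wt replicate 3. The fitted differences of 0.62 to 0.90 were not called and rest on that library. sv2a, a vesicle glycoprotein, had means from 36873 in nrxn2_full to 43580 in nrxn2_tmr, against 40013 ± 4874 in wt. synpr, sv2bb, SV2C and syn2b were not called. Nor were the 3 tested identifiers of the vesicular glutamate transporters, SLC17A6 and SLC17A7, whose fold changes ran from -0.87 to 0.18.

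In membrane retrieval, 3 of 6 identifiers were called. synj1, the phosphatase synaptojanin that strips clathrin coats, had the highest ratio of highest to lowest library among the members detected in every library. It had 8679, 8734 and 8457 normalised counts in nrxn3_tmr and 15.6, 25.8 and 8.66 in nrxn3_full. It had 19.5, 16.3 and 9.62 in nrxn2_full and 5.62, 21.6 and 19.2 in nrxn2_tmr, against 9.15, 12.9 and 1180 in wt. The nrxn3_tmr libraries were all above the 3 of wt, and those of nrxn2_full, nrxn2_tmr and nrxn3_full were all under 26, far below wt replicate 5 and near the other 2 of wt. The wt mean therefore rests on replicate 5. nrxn3_full was -9.00 ± 1.61 relative to nrxn3_tmr (adjusted p = 0.0026), which held without any 1 library. Against wt, nrxn3_tmr was 4.42 ± 1.26 higher (adjusted p = 0.042), lost without any 1 nrxn3_tmr replicate (0.075, 0.071 and 0.069) or wt replicate 1 or 3 (0.084 and 0.093). Without wt replicate 5 it was 9.60 (adjusted p = 0.00010). nrxn3_full, at -4.57, was not called (adjusted p = 0.054). The calls of -4.72 ± 1.41 in nrxn2_full (adjusted p = 0.043) and -4.69 ± 1.41 in nrxn2_tmr (adjusted p = 0.047) turned to 0.47 and 0.50 without wt replicate 5 (0.86 and 0.87). They were also lost without any 1 replicate of the line (0.061, 0.121 and 0.151 in nrxn2_full, and 0.154, 0.117 and 0.121 in nrxn2_tmr). Of 7 neighbours that could be tested, adgrg4b, 3 genes away, was higher in nrxn3_tmr, at a mean of 888 against 0.339 in wt (adjusted p = 0.00042). dchs1b, 2 genes away, had 235, 245 and 281 in nrxn3_tmr, against 0, 0 and 49.8 in wt replicates 1, 3 and 5. It had 0 to 52.0 in the other 3 lines and was not called in nrxn3_tmr. The part of the neighbourhood in the synj1 levels was not tested.

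DNM1, a neuronal dynamin that cuts vesicles from the membrane, fell in nrxn2_full at both of its identifiers. DNM1 ENSDARG00000010042 had 6059, 5670 and 3556 normalised counts in nrxn2_full, against 10600, 7762 and 11166 in wt, with no overlap. It was -0.95 ± 0.15 relative to wt (adjusted p = 0.00057) and -0.82 ± 0.15 relative to nrxn2_tmr (adjusted p = 0.0018), and both held without any 1 library. The other 3 lines averaged 7804 to 9018. DNM1 ENSDARG00000009281 had 6797, 5411 and 4702, against 7387, 6372 and 7293 in wt, a fall of -0.32 ± 0.09 (adjusted p = 0.034) that was lost without nrxn2_full replicate 2 or 3 (0.115 and 0.175) or wt replicate 1 or 5 (0.108 and 0.098), and also with size factors from neuron markers (0.055). The endophilin genes sh3gl2a and sh3gl2b and dnm3a were not called.

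The libraries of nrxn2_full differed for many members. Relative to the wt mean, 10 and 14 of the 47 identifiers were lower by over 1.5-fold in replicates 2 and 3, against 6 in replicate 1, 3 to 6 in the nrxn2_tmr libraries and 0 to 5 in those of wt. Each wt library is part of the wt mean, which keeps its own count low. The same share over all genes is not given, so whether these counts are particular to the members was not tested. Without replicate 1 the line had 16 calls against wt, 3 higher and 13 lower, while 19.4% of all genes tested were called in that fit, in either direction. The shares of all genes higher and lower in that fit are not given, so the direction of the 16 has no background. Of the 16, 6 were among the 7 with all libraries. The 10 gained were SYT2 (both identifiers), SLC17A6 ENSDARG00000001127, SLC17A7 ENSDARG00000090106, SV2C, sh3gl2b, RAB3A ENSDARG00000043835, NAPB ENSDARG00000069101 and syt5a, all lower, and syn2a, higher. SYT2 ENSDARG00000025206, a fast calcium sensor like syt1a, had 3478, 1352 and 877 normalised counts in nrxn2_full, against 3067, 1497 and 2538 in wt, and was at -1.09 without replicate 1 (adjusted p = 0.0022) and -0.32 with it (not called). sh3gl2b had 699, 406 and 294, against 815, 542 and 668 in wt. In both genes wt replicate 3 was the lowest wt library. Without nrxn2_full replicate 2 the line had 3 calls (6.49% of all genes), and without replicate 3 it had 2 (5.07%).

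**Figure D5:**
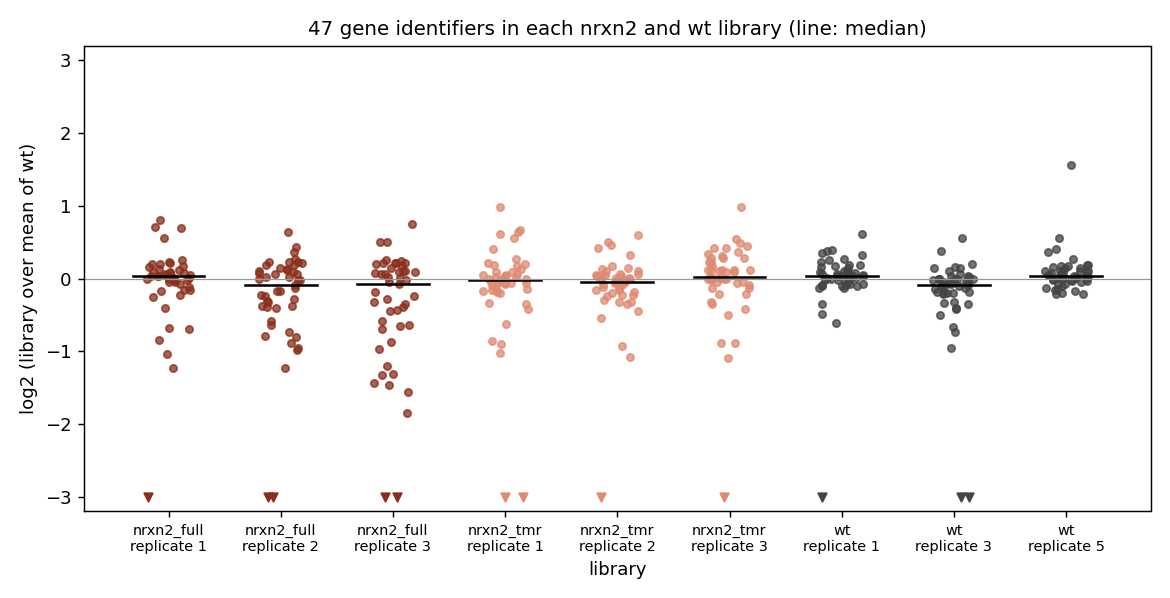
Log2 of each library over the wt mean (y axis) for the 47 identifiers in the nrxn2_full, nrxn2_tmr and wt libraries (x axis). Points are identifiers, triangles lie below -3 and lines are medians. More identifiers are below wt by over 1.5-fold in nrxn2_full replicates 2 and 3, with 10 and 14, than in the other libraries shown. Each wt library is part of the wt mean, and the share over all genes is not shown.

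Between the lines of a pair, 3 members differed between nrxn2_full and nrxn2_tmr (11.9% of all genes did) and 3 between nrxn3_full and nrxn3_tmr (4.76%). The count between the nrxn2 lines became 17 without nrxn2_full replicate 1, where 21.4% of all genes were called. Between the same lines 3 of 11 myelin identifiers were higher in nrxn2_full and 0 lower, with a median of 0.59 and all 11 over 0. Their summed level was 373012 to 441472 in nrxn2_full and 255548 to 332639 in nrxn2_tmr. Of the 25 neuron identifiers, 2 were higher and 3 lower, with a median of 0.14. The part of these cell types in the 3 members was not tested. Besides those given, SNAP25 ENSDARG00000020609 was 0.16 ± 0.05 above nrxn2_tmr in nrxn2_full (adjusted p = 0.032). That call was lost without nrxn2_full replicate 2 or 3 (0.113 and 0.160) or nrxn2_tmr replicate 1, 2 or 3 (0.083, 0.057 and 0.099), and with size factors from neuron markers (0.88), which moved the median of all genes in this comparison to -0.15.

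Other genes of the same pathway, 132 identifiers tested from a list of syntaxins, Munc18, complexins, clathrin, adaptor and related genes, had 5 higher and 12 lower in nrxn2_full, 6 and 9 in nrxn2_tmr, 7 and 6 in nrxn3_full and 7 and 3 in nrxn3_tmr. As shares these were 3.79% and 9.09% in nrxn2_full (4.57% and 5.08% of all genes), 4.55% and 6.82% in nrxn2_tmr (3.71% and 4.77%), 5.30% and 4.55% in nrxn3_full (3.95% and 4.18%), and 5.30% and 2.27% in nrxn3_tmr (3.61% and 3.71%). CPLX1 ENSDARG00000111920, a complexin, which clamps and then aids SNARE fusion, rose in 3 lines, by 0.25 in nrxn2_full, 0.44 in nrxn2_tmr and 0.36 in nrxn3_full, with means of 9313 to 10664 there, against 7848 in wt. In nrxn3_tmr it averaged 8943 (adjusted p = 0.14). CPLX3 ENSDARG00000099196, another complexin, fell by -9.52 in nrxn2_full (adjusted p = 0.0018). It had 1, 0 and 0 normalised counts there, against 355, 403 and 210 in wt. Its means were 48.7 in nrxn2_tmr, 110 in nrxn3_full and 116 in nrxn3_tmr, against 322 in wt, and these lines were not called. SCAMP5 ENSDARG00000040274, a vesicle membrane protein, fell in all 4 lines, to means of 233 in nrxn2_tmr to 368 in nrxn3_full, against 625 in wt. DOC2A ENSDARG00000078736, a calcium sensor of the Doc2 family, rose in all 4, to means of 154 in nrxn2_tmr to 257 in nrxn3_tmr, against 2.09 in wt.

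Among the endocytosis genes of that list, HSPA8 ENSDARG00000068992, the chaperone that uncoats clathrin vesicles, fell to 3011 in nrxn2_full, 3300 in nrxn2_tmr and 5578 in nrxn3_full, against 8219 in wt. It averaged 7933 in nrxn3_tmr and was not called there. cltca, a clathrin heavy chain gene, fell to 1422 in nrxn2_full and 1827 in nrxn2_tmr, against 3256 in wt, and averaged 2971 in nrxn3_full and 4057 in nrxn3_tmr, which were not called. ITSN2 ENSDARG00000054973, an endocytic scaffold, averaged 7.94 in nrxn3_full, against 1237 in wt, a fall of -7.27. In the other 3 lines it averaged 901 to 1472 and was not called. SH3GLB1 ENSDARG00000045294, an endophilin B gene, averaged 0.288 in nrxn2_tmr and 0.362 in nrxn3_tmr, against 259 in wt. It averaged 89.1 in nrxn2_full (0, 144 and 123) and 104 in nrxn3_full (106, 100 and 106), which were not called.

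With 1 library of the comparison left out, the calls of ITSN2, SH3GLB1 and CPLX3 named here held. Of the others, those lost were HSPA8 in nrxn3_full, without any 1 library (adjusted p up to 0.104), SCAMP5 in nrxn3_full, without any but wt replicate 1 (up to 0.152), CPLX1 in nrxn2_full, without any but wt replicate 5 (up to 0.145), cltca in nrxn2_tmr, without nrxn2_tmr replicate 1 or 2 or wt replicate 5 (up to 0.074), and DOC2A in nrxn2_tmr, without any 1 wt replicate (up to 0.057).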

How the data were processed

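Whole-brain poly(A) RNA of adult wt fish and 7 double-mutant lines was sequenced, 3 libraries per genotype. The 15 libraries of wt and 4 lines are described, and results of the other 9, which entered the fit, are not reported here. From stranded libraries, the authors obtained reads that passed through FastQC 0.11.9, MultiQC 1.9 and Trimmomatic 0.39 before alignment to GRCz11 (Ensembl release 113) by STAR 2.7.11b. They deposited STAR's raw read counts per gene for 37241 genes. Which strand column was kept was not stated, so overlapping genes remain uncertain, and near-identical paralogs could also share reads.

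Counts were divided by DESeq2 1.42.0 size factors. The 23641 genes reaching 10 counts in 3 or more libraries entered edgeR 4.0.16 under R 4.3.3 (robust quasi-likelihood, 1 coefficient per genotype, all 24 libraries), adjusted over all of them and called at 0.05. SE is the log2 fold change over the root of F. In simulated counts for nrxn3_full against wt over 23286 genes, 20%, 46%, 88% and 88% of genes changed 1.5-, 2-, 4- and 8-fold were recovered. Total counts of 28512102 to 38016650 bound a gene with no read at 3 counts.

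Members and lists were chosen with earlier results of these data known. All members were accounted for, and those called in any comparison named. Of the pathway list, up to 4 called genes per comparison with the lowest adjusted p could be named. Of the list's 150 entries 137 were found. Chromosomes and gene order came from RefSeq tables of GRCz12tu. The symbols of the Ensembl identifiers came from a separate list, in which paralogs can share a symbol. Neighbours were the 10 protein-coding genes on either side with a symbol found once. Further marker lists gave per line, as called lower, 2 to 4 of 9 tested skeletal muscle, 0 or 1 of 21 retina and 0 or 1 of 12 microglia identifiers. Of all genes, 3.71% to 5.08% fell per line. The retina medians ran from -3.69 to -2.06, and the pineal median in nrxn2_full was -3.70 with 0 called. In nrxn3_full 1 of 7 erythrocyte identifiers was called lower, with a median of -1.37. Their sum was 10001 to 15094 there, against 22733 to 34085 in wt. The summed muscle level was 210 to 534 in the lines, against 5143, 258 and 276 in wt. In nrxn2_full, 2 of 11 myelin, 1 of 15 radial glia and 1 of 8 ependyma identifiers were called higher (4.57% of all genes rose). Libraries with the same replicate number were little correlated: 1 of 53 same-number pairs had a correlation over 0.1. Alternatives were TMM factors, size factors from neuron markers, the DESeq2 test, no filter, at least 50 counts, a 1.5-fold threshold, only the libraries compared, a replicate block and each library left out, for pathway genes as an alternative chosen after seeing the data.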

Additional observations from a re-analysis of the deposited data

Results flagged for a closer look

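Members that differed between the full and the tmr line of 1 neurexin pair, by the test of the difference itself, are given as log2 differences of the full over the tmr line. In nrxn2 they were DNM1 ENSDARG00000010042 (-0.82), SYT7 ENSDARG00000078060 (-0.72) and SNAP25 ENSDARG00000020609 (0.16). In nrxn3 they were synj1 (-9.00), vamp1b (0.81) and NAPB ENSDARG00000013669 (-0.70). With 3 libraries a group, single libraries were not tested as outliers.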

How the results depend on the processing

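Every alternative was recomputed for the count of members called and for each member call. For the named pathway genes only the omission of single libraries was recomputed, chosen after seeing the data, and no neighbour or marker list was. Of 22 member calls, 22 kept direction and call with TMM factors, with DESeq2 and with at least 50 counts, and calls were lost for 5 without a filter, 6 with size factors from neuron markers, 9 with the replicate block, 18 with only the libraries compared, and 21 against a 1.5-fold threshold. Leaving out 1 library covers the 6 libraries of the comparison. Of 132 such values, 58 lost the call and 2 turned round, synj1 in nrxn2_full and nrxn2_tmr, which ran from -5.29 to 0.47 and from -5.26 to 0.50.

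With all libraries, 7, 5, 0 and 4 members were called in nrxn2_full, nrxn2_tmr, nrxn3_full and nrxn3_tmr against wt. With 1 library left out these became 2 to 16, 1 to 4, 0 to 1 and 0 to 3. The 3 between nrxn2_full and nrxn2_tmr became 2 to 17, and the 3 between nrxn3_full and nrxn3_tmr 2 to 3. Libraries of other lines also move a count through the shared fit: without nrxn2_full replicate 1 or 3 there were 4 between nrxn3_full and nrxn3_tmr, and in nrxn3_tmr against wt 4, as with all libraries.

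A 1.5-fold threshold left 0 in nrxn2_full, nrxn2_tmr and nrxn3_tmr, and 0 and 1 between the full and tmr lines of nrxn2 and nrxn3. Only the libraries compared gave 0 in nrxn2_full, 2 in nrxn2_tmr, 0 in nrxn3_tmr and 1 between the nrxn2 lines. Size factors from neuron markers gave 4 in nrxn2_full, 1 in nrxn3_full and 8 between the nrxn2 lines, DESeq2 gave 1 in nrxn3_full and 10 between the nrxn2 lines, and at least 50 counts gave 1 in nrxn3_full. The replicate block gave 4 in nrxn2_full, 2 in nrxn2_tmr and 2 in nrxn3_tmr. The shares of all genes called under these alternatives are not given. What the replicate numbers stand for is not given, and 3 of 24 libraries correlated best with their own number. A shared litter or day was not tested. Beyond fewer samples or an added threshold, the cause of these shifts was not tested. At 3 libraries a group, 20% of genes changed 1.5-fold were recovered in the simulation of nrxn3_full against wt. That simulation called 122 genes, against 933 higher and 989 lower in the data, so recovery may differ in the data. Some members were called at under 1.5-fold, such as SNAP25 ENSDARG00000020609 at 0.19 in nrxn2_full, but small changes could still go uncalled.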
